A study of Drosophila melanogaster with 4 samples.

Results

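The genes described here are 3 genes of the Jun N-terminal kinase (JNK) pathway of Drosophila melanogaster, hep, kay and puc, together with p53. They were found by gene symbol among the array spots that the platform annotation assigns to exactly 1 gene, which gave 4 of 2377 named genes, each with 2 adjacent spots. In these data puc and kay had log2 ratios above 0 on all 4 arrays, as did 8.83% of named genes. On all 4 arrays p53 lay below 0, as did 7.99% of named genes. The gene hep lay above 0 on 3, and no member passed the test over the whole table. These signs rest on an assumed direction of the ratios.

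The JNK pathway is a stress-activated protein kinase cascade. In the fly the kinase hemipterous (hep) phosphorylates the JNK basket (bsk), which activates the AP-1 transcription factor formed by kayak (kay, the fly Fos) and the fly Jun (Jra). Puckered (puc), a phosphatase gene that AP-1 induces, dephosphorylates basket and so closes a negative feedback loop, and its transcript is widely used as a readout of the pathway. p53 is a transcription factor of the DNA damage and cell death response, and in fly tissues its action is linked with JNK signalling. The pathway is known for its part in wound healing, epithelial movement, cell death and resistance to oxidative stress.

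RNA came from whole adult females of the Oregon-R strain, aged 10 to 20 days and pooled at about 240 insects. In a Potter's tower, an apparatus for even topical spraying, treated flies received 2 mL of Piper nigrum (black pepper) seed extract, at 0.9 mg/mL with 99% ethanol as the carrier. Control flies were sprayed with the same volume of carrier, and sampling took place after 4 h. Both groups thus received ethanol, and no unsprayed flies are among the samples used here. Replicate pools 1 and 3 were each hybridised on 2 spotted arrays with the Cy3 and Cy5 dyes exchanged, so that n = 2 pools. Whole females mix many tissues, so a change in the number of cells of a type and a change of RNA per cell cannot be told apart.

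All values are log2 ratios, read as extract over ethanol. The sources used here do not state the numerator, and the log base was taken as 2. This direction was assumed, and every sign given here would flip if ethanol were the numerator. If the ratios had been deposited by dye, the effect of the extract would instead lie in a second reading, in which the sign of the 2 reverse-label arrays is turned. That reading, called the turned reading below, is given beside the main values of the members and of the other pathway genes. It takes Cy3 as the numerator, and every turned sign would flip if Cy5 were the numerator. The sources used here do not settle which dye it would be. The arrays resembled each other little, with pairwise Pearson correlations over 16896 spots of 0.0187 to 0.0881, whether they shared a pool, a dye or neither. Ratios carry no level, so the tissue could not be checked by its markers. Among the markers listed for organs that females lack, 4 of 6 were measured, from -0.02 to 0.39 with a median ratio of 0.01. The ovary and yolk markers yl, exu and pum, 3 of 9, lay from -0.28 to 0.22, the fat body marker apolpp at -0.54, and no gut marker was measured under its name. Muscle markers, 6 of 8 measured, spread from -0.01 to 1.13 with a median of 0.36. The blood cell markers NimC1 and Pxn lay at -0.02 and -0.03. The part of tissue composition in the members' ratios was not tested.

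The kinase gene hep (CG4353) had the mean nearest to 0 among the members. Its log2 ratio was 0.26 on the Cy3 array and 0.23 on the Cy5 array of replicate 1, and 0.24 on the Cy3 array and -0.10 on the Cy5 array of replicate 3, where the dye named is that of the extract. The arrays of replicate 1 and the Cy3 array of replicate 3 were nearly level, and the Cy5 array of replicate 3 lay apart below 0. The pool means were 0.24 in replicate 1 and 0.07 in replicate 3, and the mean was 0.16 ± 0.15 (limma standard error, n = 2 pools, 95% interval -0.18 to 0.50). It did not pass (limma, adjusted p = 0.848). Without the Cy3 array of replicate 3 the mean was 0.07, and without its Cy5 array 0.24. On that Cy5 array the spots of hep stood at 0.10 and -0.30, so that 1 of the 2 spots set the negative mean.

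The transcription factor gene kay (CG33956) had mean ratios of its spots above 0 that varied widely between arrays. It stood at 0.84 on the Cy3 array and 0.03 on the Cy5 array of replicate 1, and at 0.35 and 0.22 on the Cy3 and Cy5 arrays of replicate 3. The arrays of replicate 1 were thus its highest and its lowest, while the pool means of 0.43 and 0.29 lay close together. The mean was 0.36 ± 0.15 (limma standard error, n = 2 pools, 95% interval 0.02 to 0.70), equal to 1.28-fold, and kay did not pass (limma, adjusted p = 0.650). Its size rested on the arrays of replicate 1, at 0.16 without the Cy3 array and 0.56 without the Cy5 array. The spots also differed: fitted apart, 1 spot gave 0.21 ± 0.17 and the other 0.51 ± 0.16 (limma, adjusted p = 0.820 and 0.442). The first of these lay below 0 on both Cy5 arrays, at -0.10 in replicate 1 and -0.11 in replicate 3. There the other spot stood at 0.15 and 0.55.

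The JNK target puc (CG7850) had the highest mean of the 4 genes and was positive on every array. It stood at 0.25 on the Cy3 array and 0.45 on the Cy5 array of replicate 1, and at 0.54 and 0.62 on the Cy3 and Cy5 arrays of replicate 3. Both arrays of replicate 3 lay above both arrays of replicate 1. The pool means were 0.35 and 0.58, and the mean was 0.46 ± 0.15 (limma standard error, n = 2 pools, 95% interval 0.12 to 0.81), equal to 1.38-fold. At an unadjusted limma p of 0.0141 puc ranked above 98.1% of named genes by the size of its ratio, yet it did not pass over all features (limma, adjusted p = 0.557). The 2 spots of puc gave means of 0.44 ± 0.16 and 0.49 ± 0.17. Of their 8 single values, 7 lay between 0.34 and 0.77, and the remaining one, on the Cy3 array of replicate 1, lay at 0.00117 where its partner stood at 0.50. With any 1 array left out, the mean of puc stayed between 0.42 and 0.51.

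The p53 gene (CG33336) was negative on every array. It stood at -0.29 and -0.37 on the Cy3 and Cy5 arrays of replicate 1, and at -0.38 and -0.12 on the Cy3 and Cy5 arrays of replicate 3. The pool means, -0.33 and -0.25, differed the least among the 4 genes, with an SD over the pools of 0.05. The mean was -0.29 ± 0.15 (limma standard error, n = 2 pools, 95% interval -0.63 to 0.05), or 0.818 of the ethanol level, and p53 did not pass (limma, adjusted p = 0.726). All 8 single spots of p53 lay below 0, from -0.68 to -0.05. With any 1 array left out its mean lay between -0.35 and -0.22.

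**Figure D1:**
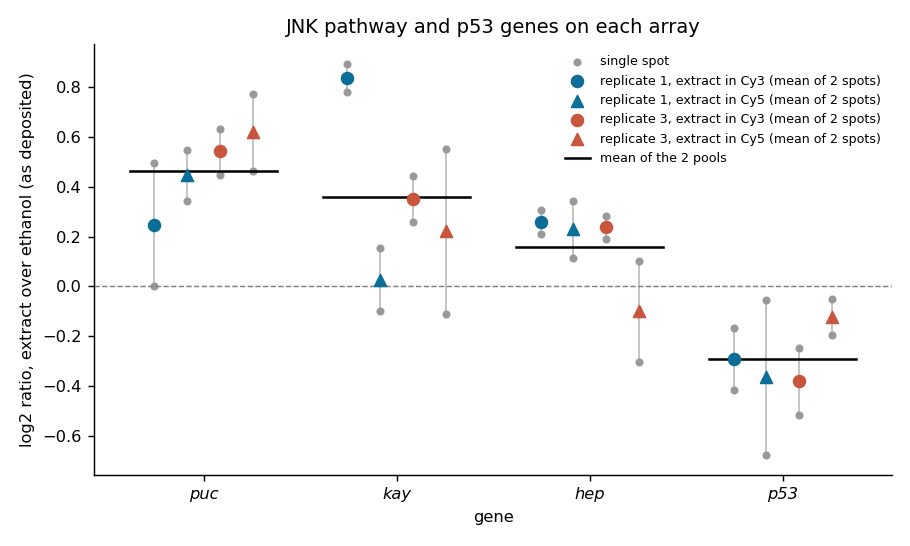
Log2 ratio of extract over ethanol, as deposited, for puc, kay, hep and p53. Coloured symbols are the mean of 2 spots on each array (colour for the pool, shape for the extract's dye), grey points the single spots and black bars the mean of the 2 pools. The 4 symbols of puc lie between 0.25 and 0.62 and those of p53 between -0.38 and -0.12, while kay spreads from 0.03 to 0.84.

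Set against the whole table, the members gave no call. Over 13607 features 6 passed the limma test at an adjusted p of 0.05 (0.0441%), and 0 of the 4 members did. At an unadjusted limma p under 0.05 stood 2 of the 4, puc and kay, against 91 of 2377 named genes (3.83%) and 7.34% of all features. The last 2 shares are not like for like, as named genes have a median of 2 spots and the other features are single spots. Above 0 on all 4 arrays lay puc and kay, against 8.83% of named genes, and below 0 on all 4 lay p53, against 7.99%. The members were chosen with earlier results of these data known, so these shares are no test of an excess among them. In the plot of pool means, puc, kay and hep fall in the quadrant above 0 in both pools and p53 in the opposite quadrant. Over the 2377 named genes the pool means correlated at a Pearson r of 0.175 and a Spearman rho of 0.151, a description across genes, which share arrays and are not independent replicates.

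**Figure D2:**
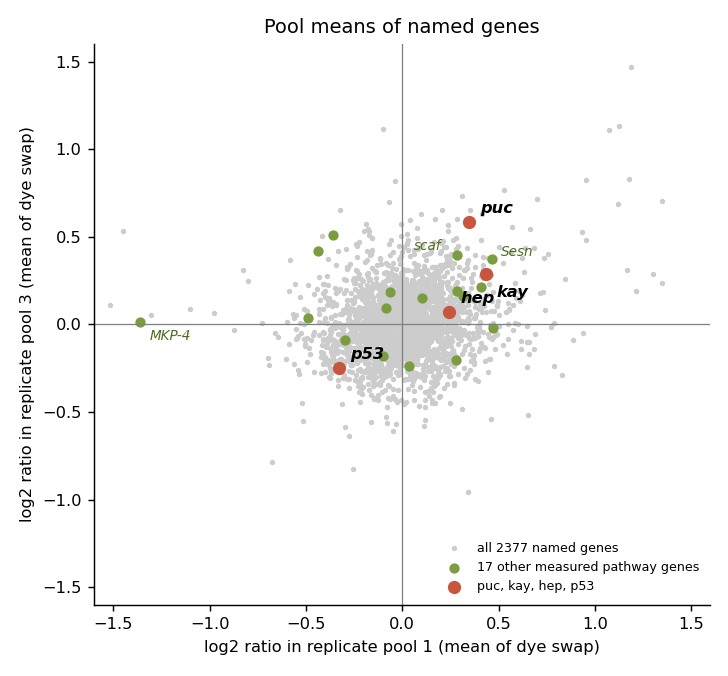
Mean log2 ratio of each named gene in replicate pool 1 (x axis) against pool 3 (y axis), each the mean of a dye swap. The 4 members are red, 17 other measured pathway genes green, and 5 named genes lie outside the axes, which end at 1.6. The gene puc lies at 0.35 and 0.58, p53 at -0.33 and -0.25, and MKP-4 at -1.36 and 0.01.

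The kinase was then compared with the transcription factor and the target within each array. The ratio of puc exceeded that of hep by 0.22 on the Cy5 array of replicate 1, and by 0.30 and 0.72 on the Cy3 and Cy5 arrays of replicate 3, and differed from it by -0.01 on the Cy3 array of replicate 1. The pool differences were 0.10 and 0.51, with a mean of 0.31 ± 0.29 (SD, n = 2 pools). This difference was little larger than the spread between pools.

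The ratio of kay exceeded that of hep by 0.58 on the Cy3 array of replicate 1 and by 0.11 and 0.32 on the Cy3 and Cy5 arrays of replicate 3, whereas on the Cy5 array of replicate 1 the difference of kay from hep was -0.20. The pool differences, 0.19 and 0.22, were nearly equal, with a mean of 0.20 ± 0.02 (SD, n = 2 pools), but their closeness came from arrays that did not match. Without the Cy3 array of replicate 1 the mean difference was 0.01, and without its Cy5 array 0.40. With 2 pools the smallest two-sided p that an exact sign-flip permutation test allows is 0.5, which is the value for each of these differences.

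In the order of mean ratios, puc at 0.46 came before kay at 0.36, hep at 0.16 and p53 at -0.29. The neighbours puc and kay did not differ beyond their spread, with pool differences of -0.09 and 0.29 that had opposite signs. Between hep and p53 the pool differences were 0.57 and 0.32, above 0 on 4 of 4 arrays, with a mean of 0.45 ± 0.18 (SD, n = 2 pools, exact sign-flip permutation p = 0.5, two-sided). On the Cy5 array of replicate 3 this difference was 0.02.

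Turning the reverse-label arrays changed the 4 genes unequally. The mean of puc became -0.07 ± 0.15, since its ratios had 1 sign under both dye orientations and cancelled (limma, adjusted p = 0.982). That of p53 became -0.05 ± 0.15 and that of hep 0.09 ± 0.15. The mean of kay stayed above 0, at 0.24 ± 0.16 (limma, adjusted p = 0.962), with Cy3 arrays higher than Cy5 arrays in both pools. Read this way with Cy3 as the numerator, kay exceeded hep by 0.14 and puc lay below hep, at a difference of -0.16. Both differences would reverse with Cy5 as the numerator. No member passed in either reading.

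**Figure D3:**
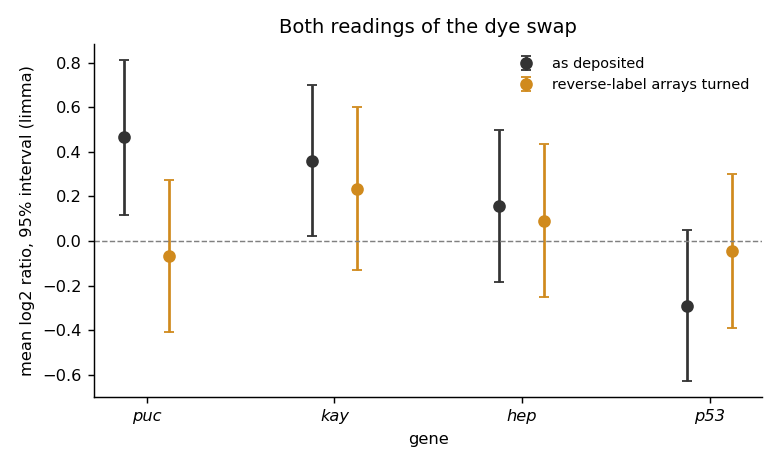
Mean log2 ratio with its 95% interval from limma for the 4 genes (y axis), in the ratios as deposited (black) and with the reverse-label arrays turned (orange). The mean of puc moves from 0.46 to -0.07 and that of p53 from -0.29 to -0.05, while kay moves from 0.36 to 0.24 and the intervals of the turned values all include 0.

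The other genes of these pathways were thinly covered. Of 98 further genes listed for JNK signalling, the p53 and DNA damage response, apoptosis and the other MAP kinase cascades, 17 were measured under a gene name. In limma 0 of the 17 passed in either direction, and 3 had an unadjusted p under 0.05, beside 3.83% of named genes and 7.34% of all features. The 3 were scaf, Sesn and MKP-4, the last through 1 spot on 1 array. The lists were chosen with earlier results of these data known, so counts over them are no test of an excess. Above 0 lay 11 of the 17 and below it 6, where 1225 of all 2377 named genes lay above. Their median was 0.06, against 0.01 over all named genes. In the turned reading 9 of the 17 changed sign, which left 8 above 0 and 9 below. The JNK itself (bsk), its partner Jra and the cell death genes rpr and hid were not among the named genes.

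Upstream of the kinases, 4 of 16 ligand, receptor and adaptor genes were measured, with a median of 0.03, and 0 passed in limma, with 0 at an unadjusted p under 0.05. The tumour necrosis factor receptor gene grnd stood at 0.06 ± 0.15, the growth factor gene Pvf1 at 0.00277 and its receptor Pvr at -0.01. The pools of Pvr lay on opposite sides of 0, at -0.44 in replicate 1 and 0.42 in replicate 3. The deubiquitinase gene CYLD stood at 0.22 ± 0.17 and rested on the Cy3 array of replicate 1, where it lay at 0.87 against at most 0.07 elsewhere. In the turned reading grnd stood at -0.13, Pvf1 at -0.10, Pvr at -0.07 and CYLD at 0.16.

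Of the 12 genes of the kinase cascade and its regulators, 4 were measured with hep among them, with a median of 0.10 and 0 past limma's test, also 0 at an unadjusted p under 0.05. The gene raw, which restrains JNK and AP-1 activity in the embryo, had a mean of 0.24 ± 0.15. It lay above 0 on all 4 arrays, from 0.13 to 0.43, as 8.83% of named genes did. The kinase gene Mekk1 was near 0 at 0.04 ± 0.17, with pools of opposite sign, and the phosphatase gene alph lay at -0.23 ± 0.17, with -0.78 on the Cy5 array of replicate 1. Turned, raw stood at -0.06, Mekk1 at 0.03 and alph at 0.08.

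Transcription factors and targets had a median of 0.34, the value of scaf, over 5 of 17 genes with kay and puc included. Without these members the middle gene was cher, at 0.13. Of these 5 genes 0 passed in limma. An unadjusted p under 0.05 was held by 3, beside 3.83% of named genes, and 2 of the 3 were the members kay and puc. The third, scaf, a JNK target of the embryonic epidermis, stood at 0.34 ± 0.15 (limma, adjusted p = 0.673), with array values from -0.03 to 0.82. The filamin gene cher stood at 0.13 ± 0.15. The BMP ligand gene dpp, which JNK induces at the leading edge of the closing embryo, lay at -0.19 ± 0.15. With any 1 array left out the median of these 5 genes ran from 0.13 to 0.39, and in the turned reading it was 0.06. Turned, scaf stood at 0.12, cher at 0.06 and dpp at -0.20.

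In the p53 and DNA damage list 4 of 18 genes were measured, with a median of -0.03 and 0 past limma's test, and 1 had an unadjusted p under 0.05. This was Sesn, which encodes the stress-induced TOR inhibitor sestrin, a p53 target in mammals. Whether Sesn depends on p53 in these flies was not tested. Sesn stood at 0.29 and 0.64 on the Cy3 and Cy5 arrays of replicate 1 and at 0.42 and 0.32 on those of replicate 3. It was above 0 on all 4 arrays, as were 8.83% of named genes. The p53 gene was below 0 on all 4, as were 7.99%. The mean of Sesn was 0.42 ± 0.15 (limma, adjusted p = 0.577). In the turned reading it was -0.06. The DNA repair gene rad50 lay at -0.14 ± 0.15, and tefu, the fly ATM kinase, at 0.07 ± 0.21 with pool means of -0.36 and 0.51. Turned, rad50 stood at -0.17 and tefu at 0.33.

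Of 19 apoptosis genes 2 were measured, with a median of 0.07 and 0 past limma's test, also 0 at an unadjusted p under 0.05. The caspase gene Strica had a mean of 0.24 ± 0.15. It lay above 0 on all 4 arrays, from 0.01 to 0.38, as 8.83% of named genes did. AIF, a mitochondrial factor of cell death, stood at -0.10 ± 0.16. Both changed sign in the turned reading, Strica to -0.04 and AIF to 0.25.

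In the list drawn up for other MAP kinase cascades 2 of 20 genes were measured, both phosphatases. The list does not show that these act outside the JNK pathway. Their median was -0.18, with 0 past limma's test and 1 at an unadjusted p under 0.05. That median was 0.16 without the Cy5 array of replicate 1 and 0.26 in the turned reading. Mkp3, a phosphatase of the fly ERK, stood at 0.31 ± 0.15, at -0.01 on the Cy3 array of replicate 3 and between 0.32 and 0.50 on the other arrays. MKP-4 had a mean of -0.67 ± 0.27 (limma, adjusted p = 0.629) that came from 1 spot on 1 array. On the Cy5 array of replicate 1 its spots read -5.66 and 0.04, and fitted apart they gave -1.49 ± 0.45 and 0.14 ± 0.16. Turned, Mkp3 stood at -0.16 and MKP-4 at 0.67.

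**Figure D4:**
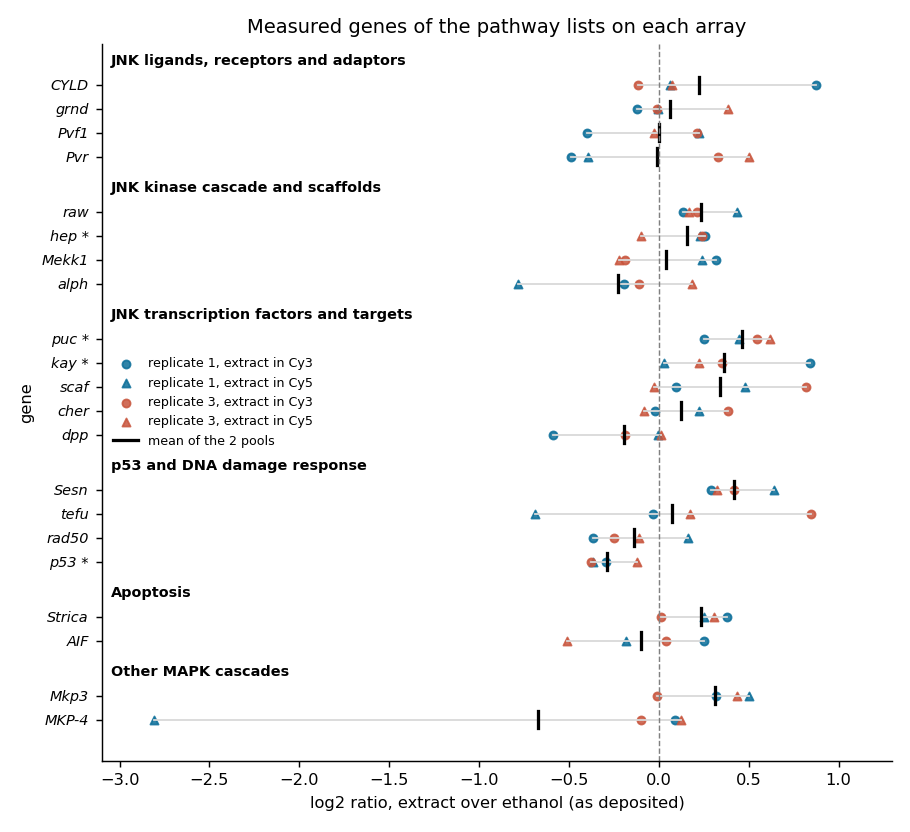
Log2 ratio of extract over ethanol, as deposited (x axis), for the 21 measured genes of the 6 pathway lists, with members starred. Symbols are arrays as in the plot of the members by array, grey lines span the arrays and black ticks are the mean of the 2 pools. The symbols of puc, kay, Sesn, raw and Strica lie above 0 on all 4 arrays, as do those of 8.83% of named genes. MKP-4 has 1 array at -2.81.

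The named genes whose ratios were most like each member were found by the root mean square difference over the 4 arrays. This is a description over 4 values per gene, and the arrays are shared by all genes. Closest to puc were Strn-Mlck, a myosin light chain kinase gene, at 0.0836, Keap1 at 0.0851 and CG4239 at 0.0975, against a median distance of 0.532 to all 2376 other named genes. Strn-Mlck stood at 0.09 and 0.47 on the Cy3 and Cy5 arrays of replicate 1 and at 0.60 and 0.60 on those of replicate 3. Keap1, the repressor of the antioxidant regulator CncC, stood at 0.17 and 0.53 on the arrays of replicate 1. On those of replicate 3 it stood at 0.66 and 0.64. Closeness on each array is the criterion by which the genes named here were picked, so it is no separate result. Closest to kay were pigs at 0.0675, Swip-1 at 0.0747 and the deubiquitinase gene Usp1 at 0.132, with a median distance of 0.524. All 3 shared with kay a high Cy3 array and a low Cy5 array in replicate 1. For hep they were APC4, of the anaphase-promoting complex, at 0.0569, CG9106 at 0.068 and ref(2)P, the fly p62, at 0.0701, with a median of 0.322. For p53 they were CG9855 at 0.0328, the sorting nexin gene Snx27 at 0.0571 and CG8635 at 0.0611, with a median of 0.39. No member was among the 3 genes closest to another.

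The agreement of the duplicate spots shows how far single spots parted on an array. Over 2089 genes with exactly 2 spots, the values of a gene on 1 array differed by a median of 0.236, with a 95th percentile of 0.949. Spots of the members differed by at most 0.495 for puc, 0.408 for hep, 0.665 for kay and 0.625 for p53, all within that percentile.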

How the data were processed

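The data are 2-channel spotted arrays of total RNA (80 µg per labelling, per the labels). The authors deposited log ratios, taken here as log2, for 16896 spots on each of 4 arrays. Their scanner, background correction, normalization, log base and numerator are not given in the sources used here. Channel 1 held ethanol and channel 2 extract, per the labels.

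Each array was centred on its median. Spots with 1 gene symbol in the platform annotation (5666) were averaged per gene, and other spots stayed single features (13607 in all). The gene numbers of all 5666 spots matched NCBI RefSeq's Release 6 gene table, with 0 symbols changed. The annotation names no genome build, so no coordinates were used. Dye swaps were averaged per pool and compared with 0 by limma 3.58.1 (lmFit, eBayes; R 4.3.3) in a two-sided test, Benjamini-Hochberg adjusted over all features at 0.05. The fit was tested on simulated data, with changes far larger than any member's ratio. That test does not show how the fit fares at the members' size. The fit had 1 residual and 8.19 prior degrees of freedom. With 2 pools the standard error of a gene thus rests mostly on the variance shared across features (median standard error 0.153), not on its own spread between pools. Nothing in the labels says how separately the 2 pools were treated, so their spread may be partly technical. The number of arrays limits the precision.

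The members and gene lists were chosen with earlier results of these data known. Named were the 4 members, the 2 highest and 2 lowest genes of each list (all where 5 or fewer) and the 3 genes most like each member. The spots of MKP-4 were examined after its value was seen. Alternatives were the turned reading, array scaling, no centring, named genes alone, single spots, the replicate block, and leaving out arrays or pools. A planned motif search in promoters was not run.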

Additional observations from a re-analysis of the deposited data

Results flagged for a closer look

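Of 43 genes, differences and list medians examined over the 4 arrays, 4 had 1 array whose gap to the nearest other exceeded Dixon's 95% critical value. For independent items chance gives about 1 in 20, or 2.15. These items overlap, as members enter the differences and list medians. Some genes, CG4239 among them, were picked for likeness to a member. The count thus cannot be judged by that rate. The ratio of hep on the Cy5 array of replicate 3 was -0.100, against 0.230 to 0.258 on the other arrays. The difference of hep from p53 on the same array was 0.0214, against 0.550 to 0.619 on the others. MKP-4 stood at -2.81 on the Cy5 array of replicate 1, against -0.0998 to 0.123. CG4239 stood at 0.105 on the Cy3 array of replicate 1, against 0.454 to 0.511.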

How the results depend on the processing

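Each of the 4 genes was recomputed under 13 alternatives, 52 values in all. Of these 51 kept their sign, 0 passed the test, and 1 changed sign, puc at -0.0681 in the turned reading. Most of these signs were bound to stay, so their count does not measure stability. Named genes alone and the replicate block alter the standard error and not the mean. Leaving out arrays or pools cannot flip puc, kay or p53, whose arrays share a sign. Were Cy5 the numerator of the turned reading, puc would keep its sign and hep, kay and p53 would change theirs. Over the fits that gave a p, the adjusted limma p ran from 0.246 to 0.982 for puc, 0.608 to 0.987 for hep, 0.404 to 0.985 for kay and 0.409 to 0.989 for p53. With 1 array or 1 pool left out, means ran from 0.35 to 0.58 for puc, 0.07 to 0.24 for hep, 0.16 to 0.56 for kay and -0.35 to -0.22 for p53. The difference of puc from hep ran from 0.10 to 0.51 and was -0.16 turned. That of kay from hep ran from 0.00813 to 0.40 and was 0.14 turned. The median of the 17 other pathway genes became -0.0427 turned. These shifts in means, differences and median follow from the values of the arrays. Why the arrays differed was not tested.

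Features past the limma test over the whole table numbered 6. They were 0 with the reverse-label arrays turned, 42 with arrays scaled to equal spread, 10 with named genes alone and 12 with 4 arrays and the replicate block, whose correlation within a pool was -0.244. With 1 array left out they ran from 0, without the Cy3 array of replicate 3, to 11, without the Cy5 array of replicate 1. Signal over background was not used here, so the detection of single spots is not known.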
